A study of Mus musculus with 36 samples.

Results

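The 10 genes described here belong to the Notch pathway: the receptors Notch1, Notch2 and Notch3, the ligands Jag1 and Jag2, the target genes Hes1, Hey1, Hey2 and Heyl, and the feedback regulator Nrarp. They were chosen by name as the receptors, ligands and Hes/Hey targets of the pathway, 10 of the 39017 genes in the count table, and each of the 10 passed the filter on low counts that kept 14439 genes for testing. RNA was sequenced from murine pancreatic fibroblasts of the C57BL/6 strain, cultured alone (mono-culture) or in direct contact for 48 h with tumour cells carrying GFP. Cells were then resolved by flow sorting on the GFP of the tumour cells, so that the fraction without GFP was taken as fibroblasts. The tumour cells were sub-clones E, H, K, M, N, T or V, or a line named KPC1, whose name the labels do not explain, and each of the 9 groups held 4 libraries, 36 in all. The libraries measured sorted fibroblast fractions only, each clone stands for itself as a single sub-clone, and the labels give a single protocol for all groups, so that co-culture and any handling that went with it cannot be told apart. Nothing in the labels says that replicates were separate cultures or came from separate animals, and p-values therefore measure the spread between these libraries.

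Notch receptors are transmembrane proteins that are bound by Jagged or Delta ligands on a neighbouring cell. Binding lets the gamma-secretase complex release the intracellular domain of the receptor, which joins the DNA-binding protein RBPJ and Mastermind co-activators in the nucleus and switches on target genes, of which the Hes and Hey repressors are the best known. In connective tissue Notch3 and Heyl are well known from the mural cells of blood vessels, and Jag1 is itself a Notch target in several mesenchymal cells.

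Library totals ranged from 12532122 to 21985538 counts. Levels are given as CPM, counts scaled to the size of the library and between libraries by TMM, and levels of different genes were compared only as RPKM, which also divides by gene length. The fibroblast label was checked against 10 fibroblast markers, which were above 0 in each library, Lum at as little as 0.105 CPM. Their summed level was 10902 to 32116 CPM, with Col1a1, Col3a1 and Col1a2 the highest. Col1a2, Col3a1, Pdgfra, Dcn and Lum were called lower than in the mono-culture with clones H, T and V and with KPC1, and Thy1 and Fap higher. Between 49.8% and 59% of all genes were called there. With clones E, K, M and N none of the 10 was called lower. Of the 12 epithelial and tumour markers, the summed level was 1.06 to 1.87 CPM in the mono-culture and 18.7 to 804 CPM in the co-cultures, with Krt18, Krt8 and Krt19 the highest, at up to 429, 227 and 131 CPM. Epcam stood at 0 in 24 of the 36 libraries and never passed 9 counts. Endothelial markers summed to at most 6.39 CPM, with Tie1 at 0 throughout, and macrophage markers to at most 33.4 CPM, with Ptprc at 3 counts or fewer. Mural markers summed to 11.5 to 14.1 CPM in the mono-culture and 12.5 to 180 CPM in the co-cultures, and the mural markers other than Mcam did not exceed 4.01 CPM. In bulk RNA, a change in the number of cells that express a gene and a change in the RNA per cell cannot be told apart.

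The regulatory sequence nearest to the results is that of the target genes. RefSeq promoter windows of 300 bases (250 before and 50 after the transcription start, GRCm38.p6) were found for 7 of the 10 genes and not for Hes1, Hey1 and Heyl. The letters GTGGGAA, bound by RBPJ, were searched on both strands. They occurred in 6.38% of 32851 windows and in 1 of the 7 windows of these genes, that of Hey2, which held them at 2 places, as did 0.256% of all windows. The matches begin 207 bases before the start, on the opposite strand, and 4 bases before it, on the strand of the gene. The shorter form TGGGAA, contained in the longer one, gave no further match in the 7 windows and was present in 25.6% of all windows. The Hey2 and Nrarp windows are shown because they are the windows found for genes of the target and feedback class; the capitals mark the RBPJ letters, and the Nrarp window holds none. The Hey2 window lies on the minus strand at chr10:30842734-30843033 and the Nrarp window on the plus strand at chr2:25180508-25180807.
Hey2: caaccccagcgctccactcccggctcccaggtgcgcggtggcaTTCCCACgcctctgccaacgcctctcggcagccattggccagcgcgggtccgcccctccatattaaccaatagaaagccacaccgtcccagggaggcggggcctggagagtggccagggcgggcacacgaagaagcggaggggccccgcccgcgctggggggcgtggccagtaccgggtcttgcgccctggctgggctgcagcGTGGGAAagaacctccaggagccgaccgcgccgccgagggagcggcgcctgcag
Nrarp: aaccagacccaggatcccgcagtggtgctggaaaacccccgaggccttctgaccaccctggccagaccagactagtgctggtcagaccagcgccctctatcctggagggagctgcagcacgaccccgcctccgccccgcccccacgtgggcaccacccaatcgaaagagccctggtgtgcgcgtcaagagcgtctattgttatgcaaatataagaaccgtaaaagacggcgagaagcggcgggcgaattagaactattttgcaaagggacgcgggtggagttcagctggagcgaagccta
The N-box CACNAG, the letters bound by Hes proteins, was present in 42.5% of all windows and in 4 of the 7, those of Notch1, Notch2, Notch3 and Nrarp. A match is a description of these letters and not of a bound site.

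The first question was whether fibroblasts cultured with a tumour line differed in these genes from fibroblasts cultured alone. Between 6 and 9 of the 10 genes were higher in each co-culture (edgeR quasi-likelihood test, Benjamini-Hochberg adjusted p below 0.05 over all genes tested). Notch1, Jag1, Hes1, Hey1, Heyl and Nrarp were higher in each of the 8, which holds for 3.42% of the 14439 genes. Notch2 moved the other way or not at all, since it was lower in the H, V and KPC1 co-cultures and was not called in the other 5. With clone E 8 genes were called, all higher, where 32% of all genes were called and 16.5% were higher. With clone K the count was also 8, all higher (19.1% of all genes called, 10.4% higher). Clones M, N and T had 9 each, all higher, and all genes were called at 23%, 39% and 49.8% and called higher at 12.2%, 19.7% and 25%. With clone H 8 genes were higher and 1 lower (54.2% called, 27.8% higher), with clone V 6 were higher and 1 lower (58.3% called, 29.4% higher) and with KPC1 9 were higher and 1 lower (59% called, 30.5% higher). The 4 libraries of a co-culture lay wholly to one side of the mono-culture for 8 genes with clones E and H (37.3% and 51.4% of all genes), 6 with clones K and V (28.8% and 52.3%), 9 with clones M, N and KPC1 (32.1%, 40.6% and 53.6%) and 10 with clone T (48.9%). The median log2 fold change of the 10 genes lay between 1.13 with clone V and 2.26 with clone T, while the median over all genes tested was within 0.02 of 0 in each contrast. The 8 comparisons share the same 4 mono-culture libraries and are not independent of each other.

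**Figure D1:**
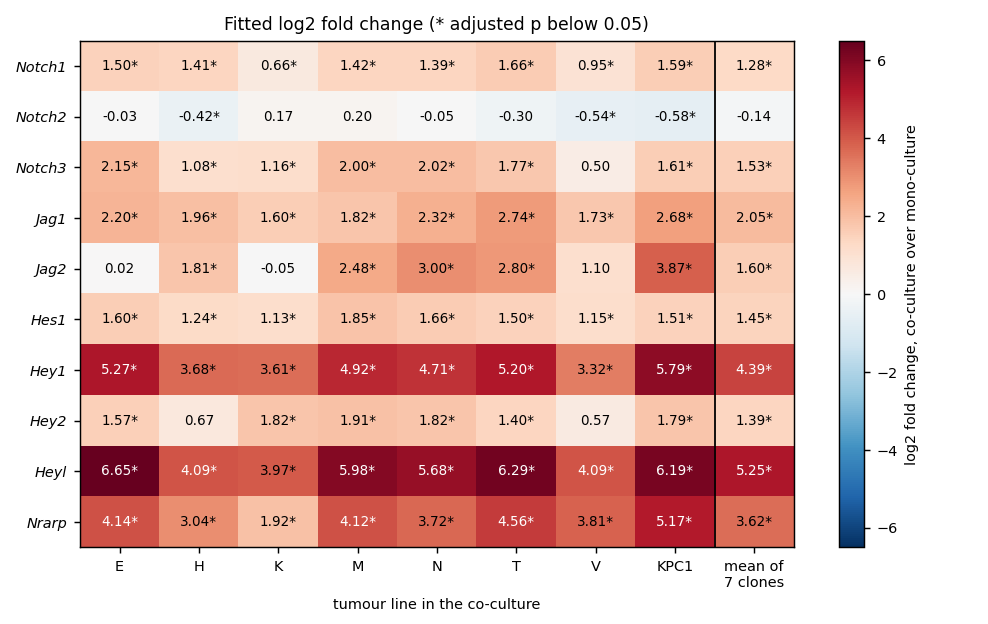
Fitted log2 fold change of each gene (rows) in each co-culture over the mono-culture and in the mean of the 7 clonal co-cultures (columns), with an asterisk where the adjusted p was below 0.05. Within each column Hey1, Heyl and Nrarp hold the 3 largest values, from 1.92 for Nrarp with clone K to 6.65 for Heyl with clone E, and Notch2 is the only gene whose called values are negative.

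Averaged over the 7 clonal co-cultures, 9 of the 10 genes were higher than in the mono-culture and Notch2 was not called, against 24.3% of all genes called higher and 49.2% called in either direction. The 28 clonal libraries lay wholly above the 4 mono-culture libraries for 4 of the genes, Notch1, Jag1, Hey1 and Heyl, and 8.01% of all genes separated in this way in either direction.

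Among the receptors, Notch1 and Notch3 were higher in the co-cultures and Notch2 was not. Notch1 (chromosome 2, 26457903 to 26516663, minus strand, GRCm38) stood at 53.8, 52.8, 51.7 and 56.5 CPM in the mono-culture and between 64.6 and 195 CPM in the 32 co-culture libraries, each of which was above all 4 mono-culture libraries. The mean clonal difference was 1.28 on the log2 scale (SE 0.149, edgeR adjusted p = 2.8e-08). It was smallest with clone K (96.2, 95.4, 82.6 and 64.6 CPM) and largest with clone T (166, 195, 190 and 130 CPM). Gene models on the opposite strand overlap Notch1, Notch3 and Nrarp, and whether the counting used strand is not given in the sources used here.

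Notch3 (chromosome 17, 32120820 to 32166852, minus strand), a receptor with a restricted, largely mural and mesenchymal expression, stood at 90.4, 93.0, 96.1 and 104 CPM in the mono-culture. With clone E it stood at 478, 510, 400 and 312 CPM, with no overlap. The mean clonal log2 difference was 1.53 (SE 0.229, edgeR adjusted p = 2.6e-06), and it was called in 7 of the 8 co-cultures. With clone V the 4 libraries stood at 82.5, 221, 107 and 132 CPM, overlapping the mono-culture (log2 difference 0.50, edgeR adjusted p = 0.109). Without the first clone V library, the one below the mono-culture, Notch3 was called higher with clone V (log2 difference 0.68, edgeR adjusted p = 0.0366), whereas without the second, the highest at 221 CPM, the difference was 0.16 (adjusted p = 0.623). The summed mural markers had group means of 12.7 CPM in the mono-culture. In the co-cultures their means were 20.8 (M), 21 (K), 42.6 (V), 46.1 (N), 57.4 (H), 84.2 (E), 116 (T) and 130 CPM (KPC1). In the same sequence of co-cultures the Notch3 means were 383 (M), 214 (K), 136 (V), 388 (N), 203 (H), 425 (E), 328 (T) and 292 CPM (KPC1). Most of the mural sum was Mcam, an adhesion molecule (9.23 CPM alone, 127 CPM with KPC1), while Rgs5, a marker of pericytes, was lower in the mean of the clones (-1.85, edgeR adjusted p = 1.5e-05). Of the other mural markers, Mcam was called higher in the mean of the clones and Cspg4 was not called. Cspg4 lay below all mono-culture libraries in 15 of the 32 co-culture libraries and above them in 7. Kcnj8 and Abcc9 were too low to be tested and stood at 0 to 1 counts in the mono-culture. They were above all mono-culture libraries in 17 and 19 of the 32 co-culture libraries, and from such counts a fall could not be seen. The part of these markers in the Notch3 values was not tested.

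Notch2 (chromosome 3, 98013527 to 98150361, plus strand) stood at 208, 218, 195 and 209 CPM in the mono-culture and between 104 and 292 CPM in the co-cultures, with 9 of the 32 libraries above and 22 below the mono-culture range. KPC1 gave 149, 145, 160 and 104 CPM (log2 difference -0.58, SE 0.179, edgeR adjusted p = 0.00635), and clone V gave 119, 169, 127 and 158 CPM (-0.54, adjusted p = 0.0109). The call with clone H (-0.42, adjusted p = 0.0463) was lost in 9 of 36 fits that each left out 1 library. Clones M and K, by contrast, had the highest Notch2 means, 238 and 234 CPM, which did not differ from the 208 CPM of the mono-culture beyond the spread.

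The balance of the receptors was read per length. In the mono-culture Notch2 made up 52.9% ± 1.68 (SD, n = 4) of the summed RPKM of the 3 receptors, Notch3 31.9% ± 1.54 and Notch1 15.2% ± 0.336. In each co-culture Notch3 was the largest of the 3 by its mean, from 39.4% ± 6.54 with clone V to 59.7% ± 3.47 with clone E, and Notch2 stood between 20.2% ± 2.73 with KPC1 and 39.0% ± 4.43 with clone K. The lowest Notch3 share in any co-culture library was 34.99%, above the highest mono-culture share of 33.3%. These shares are given as a description and were not put to a test of their own.

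**Figure D2:**
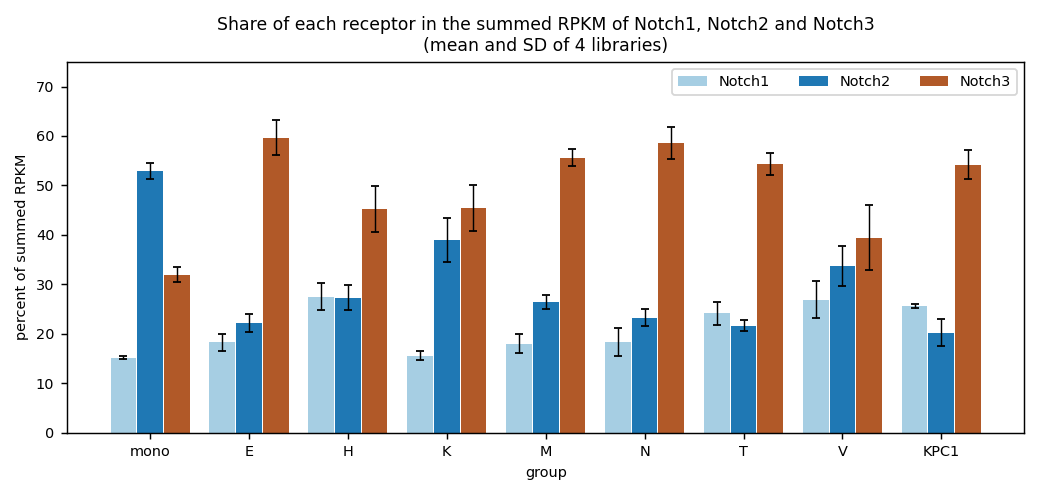
Share of Notch1, Notch2 and Notch3 in their summed RPKM by group (bars, mean; error bars, SD of 4 libraries; x axis, group). Notch2 leads in the mono-culture at 52.9% and Notch3 leads in each co-culture, at 39.4% to 59.7%.

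Of the ligands, Jag1 was higher in each co-culture, whereas Jag2 was higher with some lines and not with others. Jag1 (chromosome 2, 137081456 to 137116644, minus strand) stood at 13.4, 15.3, 14.5 and 21.6 CPM in the mono-culture and between 33.9 and 152 CPM in the co-cultures, again with no overlap in 32 of 32 libraries. Clone T gave 137, 109, 114 and 76.2 CPM and clone K, the lowest, 52.9, 52.9, 58.5 and 33.9 CPM. The log2 difference ran from 1.60 with clone K to 2.74 with clone T (mean over clones 2.05, SE 0.226, edgeR adjusted p = 1.4e-08). Neighbours in the order of co-culture means (T, KPC1, N, E, H, M, V, K) did not differ beyond their spread, and 8 of the 28 pairs of co-cultures were called, where 27.5% of gene by pair differences over all genes were called.

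Jag2 (chromosome 12, 112907819 to 112929776, minus strand) was a low gene, at 0.330, 0.330, 1.06 and 0.731 CPM in the mono-culture (6 to 16 counts). KPC1 gave 12.2, 5.79, 10.8 and 6.56 CPM and clone N gave 3.26, 5.52, 5.84 and 4.76 CPM, both wholly above it, with log2 differences of 3.87 (SE 0.478, edgeR adjusted p = 5.5e-08) and 3.001 (SE 0.475, adjusted p = 7.9e-06). With clones E and K the levels lay inside the mono-culture range, 0.491 to 0.766 and 0.360 to 0.802 CPM, and the log2 differences were 0.02 (adjusted p = 0.983) and -0.05 (adjusted p = 0.964). With clone V the difference was 1.10 (adjusted p = 0.0559). Jag2 had the most called pairs of co-cultures, 18 of 28. In clone M a single library stood apart, at 8.14 CPM against 1.09 to 2.31 CPM in the other 3, and it was also the clone M library with the most epithelial marker RNA, 529 against 53.6 to 285 CPM. Without it the log2 difference with clone M went from 2.48 to 1.52 (edgeR adjusted p = 0.00899).

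The 4 Hes and Hey genes, which encode transcriptional repressors of the basic helix-loop-helix class, were all higher in the mean of the clones, by very different amounts. Hes1 (chromosome 16, 30064384 to 30067796, plus strand) was already well expressed alone and uneven there, at 9.25, 21.7, 52.8 and 8.87 CPM. The co-culture libraries stood at 32 to 96.5 CPM, and 25 of the 32 were above all 4 mono-culture libraries. The mean clonal log2 difference was 1.45 (SE 0.298, edgeR adjusted p = 1.8e-04). The third mono-culture library overlapped the co-cultures and the other 3 did not, and without it the difference was 2.24 (adjusted p = 1.7e-07), with larger values in each of the 8 co-cultures as well (1.92 to 2.64). Hes1 was the only gene of the 10 not called among the clones (edgeR F-test adjusted p = 0.321), and 0 of its 28 co-culture pairs were called. The call with clone K (1.13, adjusted p = 0.0236) was lost when mono-culture library 1, 2 or 4, or clone K library 1 or 2, was left out, with log2 values of 0.85 to 1.92 over all leave-outs. In fits of only the mono-culture and 1 co-culture, whose spread rests on the 8 libraries alone, Hes1 was called with clone T and with none of the other 7 (adjusted p = 0.051 to 0.188).

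Hey1 (chromosome 3, 8663359 to 8667256, minus strand) was at a few counts per library without tumour cells and was measured clearly with them. The mono-culture libraries stood at 0.330, 0.110, 0.152 and 0.366 CPM (6, 2, 2 and 8 counts). KPC1 gave 16.1, 13.2, 12.2 and 15.3 CPM, clone T 9.16, 10.5, 9.89 and 8.14 CPM and clone V, the lowest co-culture, 2.09, 4.28, 1.96 and 1.79 CPM. All 32 co-culture libraries were above the mono-culture. Against the pooled mono-culture level, the ratio was 24.2 for the mean of the clones (95% Poisson interval of the 18 mono-culture counts, 15.3 to 40.9), 56.3 for KPC1 (35.6 to 95.04) and 10.04 for clone V (6.35 to 16.9). The fitted mean clonal log2 difference was 4.39 (SE 0.291, edgeR adjusted p = 3.7e-13).

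Hey1 had the smallest p of the 10 genes in the F-test among the 7 clones (edgeR adjusted p = 3.1e-09). The order of the means was KPC1 (14.2 CPM), E (9.91), T (9.42), M (7.78), N (6.71), H (3.28), K (3.15) and V (2.53). Within E, T, M and N, and within H, K and V, neighbours did not differ beyond their spread, nor did KPC1 and E (adjusted p = 0.0556), and the step from N to H did (edgeR adjusted p = 0.00103). Across the 36 libraries, the genes whose log2 CPM followed Hey1 most closely were Fap (Pearson r = 0.948), Klrb1c (0.936) and Heyl (0.929). Fap, fibroblast activation protein, was itself one of the fibroblast markers and ranged from 0.640 to 79.7 CPM. These correlations are descriptions over libraries that share groups.

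Heyl (chromosome 4, 123233556 to 123249875, plus strand) was listed at 0, 1, 2 and 3 counts in the mono-culture, at most 0.152 CPM. Clone E gave 9.67, 13.1, 7.42 and 6.19 CPM, clone T 11.9, 4.67, 7.70 and 4.21 CPM and clone K 1.93, 2.15, 1.37 and 0.315 CPM, so that even the lowest co-culture library, with 7 counts, was above the mono-culture. With 6 mono-culture counts in all, the ratio was loosely bounded, 52.9 for the mean of the clones (95% Poisson interval 24.3 to 144), 108 for clone E (49.8 to 295) and 17.2 for clone K (7.88 to 46.7). The fitted log2 value of 5.25 (edgeR adjusted p = 4.1e-07) depends on the prior count of the fit at such levels, and with clone V it was 4.09, or 3.22 without clone V library 2 (adjusted p = 0.00146). The order of means was E (9.10 CPM), T (7.12), KPC1 (6.63), M (5.74), N (4.64), H (1.57), V (1.52) and K (1.44). The step from N to H differed (edgeR adjusted p = 0.0169) and no other step between neighbouring co-cultures did. For Hey1 and for Heyl alike, clones H, K and V stood below E, T, M, N and KPC1. The summed epithelial and tumour markers divided the co-cultures in the same way, with group means of 157, 152 and 101 CPM for H, K and V and of 253 to 538 CPM for the other 5, and their part in these levels was not tested. With the library of the highest sum left out of each co-culture, a comparison added after the data were seen, Hey1 and Heyl differed among the clones (edgeR F-test adjusted p = 5.4e-06 and 6.4e-04), as did 59% of all genes. The libraries kept were also unequal in their marker sums, with 29.1 to 124 CPM in clone V and 436 to 537 CPM in clone N. This fit therefore cannot set clone and marker RNA apart.

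Hey2 (chromosome 10, 30832359 to 30842801, minus strand) changed less and varied more. The mono-culture stood at 1.21, 2.48, 1.60 and 2.10 CPM. Clone M gave 8.07, 10.2, 4.24 and 5.45 CPM and clone V 2.44, 4.53, 2.89 and 1.14 CPM. The mean clonal log2 difference was 1.39 (SE 0.390, edgeR adjusted p = 0.0037). It was called in 6 of the 8 co-cultures and not with clones H (0.67, adjusted p = 0.238) and V (0.57, adjusted p = 0.314). The difference among the clones was near the threshold (F-test adjusted p = 0.0379) and was lost in 9 of 36 fits that left out 1 library. The calls with clones E and T were lost without clone E library 1 and mono-culture library 1, respectively.

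**Figure D3:**
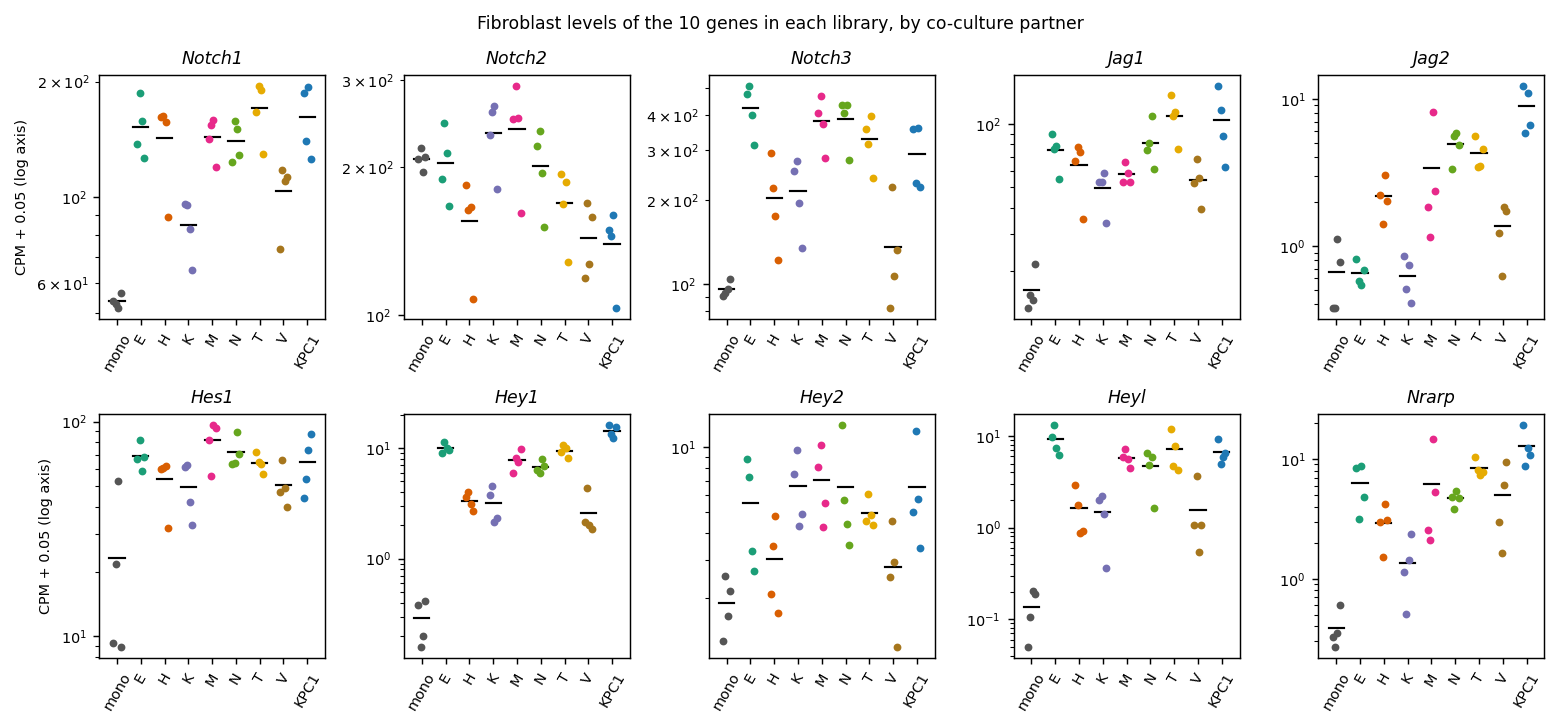
Level of each gene in each of the 36 libraries (points; y axis, CPM + 0.05 on a log axis) by group (x axis), with the group mean as a bar. The 32 co-culture libraries of Notch1, Jag1, Hey1 and Heyl lie above the 4 mono-culture libraries, while Notch2 has 22 of 32 below them and Hes1 has 1 mono-culture library, at 52.8 CPM, among the co-cultures.

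Nrarp (chromosome 2, 25180758 to 25183339, plus strand) encodes a small ankyrin-repeat protein that is a Notch target and limits Notch signalling. It stood at 0.275, 0.220, 0.304 and 0.548 CPM in the mono-culture (4 to 12 counts). KPC1 gave 19.2, 8.74, 12.3 and 10.7 CPM and clone T 10.3, 8.02, 7.32 and 7.75 CPM. The ratio to the pooled mono-culture level was 14.1 for the mean of the clones (95% Poisson interval 9.54 to 21.8) and 36.3 for KPC1 (24.6 to 56.2). The mean clonal log2 difference was 3.62 (SE 0.576, edgeR adjusted p = 6.3e-06). With clone K the libraries stood at 1.08, 0.455, 1.37 and 2.29 CPM, of which 1 was inside the mono-culture range, and this call (adjusted p = 0.0493) was lost in 27 of 36 fits that left out 1 library. With clone M the log2 difference was 4.12, and 3.21 without clone M library 3 (adjusted p = 2.1e-04).

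The epithelial and tumour marker RNA of each library was read beside the levels of the genes, since it differed between libraries of a group. In 7 of the 8 co-cultures the library with the highest epithelial marker sum also had the highest Nrarp, and in 4 of the 8 it had the highest Jag2. The same count was 1 for Hey1, 2 for Heyl, 2 for Notch1 and 0 for Notch3. In clone V the 4 libraries held 35.9, 29.1, 124 and 216 CPM of epithelial markers, and Nrarp stood at 2.95, 1.59, 6.05 and 9.39 CPM. In clone K, library 4 had the highest epithelial sum, 304 CPM, and the lowest Notch1, Notch3 and Heyl of its group, whereas library 2 had the lowest sum, 18.7 CPM, and the highest Hey1 (4.49 CPM), Heyl and Notch3 (274 CPM). Taking from each co-culture the library with the lowest epithelial sum, all 8 were above the mono-culture for Notch1, Notch3, Jag1, Hes1, Hey1, Hey2 and Heyl, 7 of 8 for Nrarp and 5 of 8 for Jag2. These 8 libraries still held 18.7 to 436 CPM of the markers, beside at most 1.87 CPM in the mono-culture. The same count over all genes is not given here. For scale, all 4 libraries of a co-culture lay to one side of the mono-culture for 28.8% (clone K) to 53.6% (KPC1) of all genes. With the library of the highest sum left out of each co-culture, the genes called against the mono-culture numbered 7 to 10, where between 16.3% (clone M) and 56.3% (clone V) of all genes were called, and were again 9 in the mean of the clones, beside 47.2% of all genes. The calls lost were Nrarp with clone K (adjusted p = 0.0565) and Notch2 with clone H (adjusted p = 0.0713), and Jag2 with clone V was gained (adjusted p = 0.047).

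**Figure D4:**
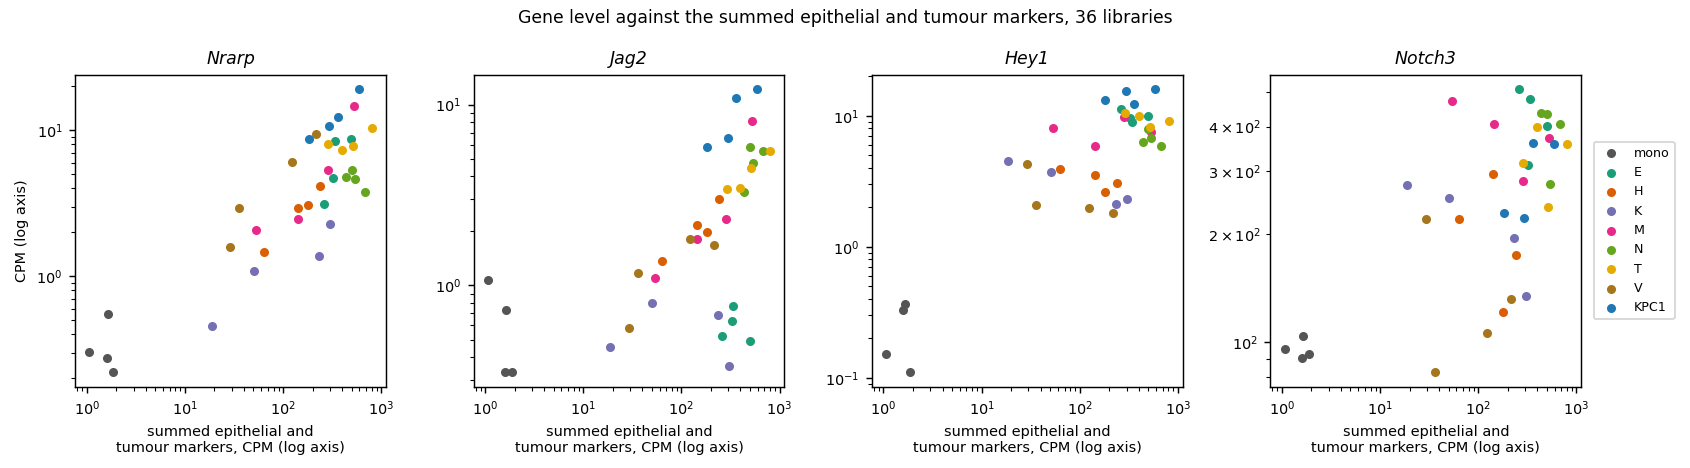
Level of Nrarp, Jag2, Hey1 and Notch3 (y axis, CPM, log axis) against the summed epithelial and tumour markers (x axis, CPM, log axis), 1 point per library coloured by group. The mono-culture libraries sit at 1.06 to 1.87 CPM of markers and the co-cultures at 18.7 to 804 CPM; within clone V, Nrarp is highest in the library with 216 CPM of markers.

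The second question was whether the genes differed by the clone the fibroblasts had met. Of the 10 genes, 9 did (edgeR F-test among the 7 clonal co-cultures) and Hes1 was not called, and 67.5% of all genes were called by the same test. The adjusted p ran from 3.1e-09 for Hey1 and 4.6e-07 for Jag2 to 0.0379 for Hey2. Over the 36 pairs of groups, 175 of 360 gene by pair differences were called, where 30.7% of the differences over all genes were. These pairs include the 8 comparisons with the mono-culture. Among the 28 pairs of co-cultures, the pairs called were 18 for Jag2, 17 for Hey1, 15 for Heyl and 12 for Notch2. They were 11 each for Notch1 and Notch3, 8 each for Jag1 and Nrarp, 6 for Hey2 and 0 for Hes1. Over all genes, 27.5% of the differences between co-cultures were called. No gene of the 10 was called between clones H and V, clones M and N, clones N and T, or clone T and KPC1, pairs between which 0.388%, 19.2%, 8.53% and 5.36% of all genes were called. Clone V differed from clones M and N in 7 genes each (57.9% and 43.5% of all genes), and clone K differed in 7 genes each from clones N and T and from KPC1 (21.7%, 41.4% and 56.1%).

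KPC1 was also compared with the mean of the 7 clones. Jag1, Jag2, Hey1, Heyl and Nrarp were higher and Notch2 was lower, 6 of the 10 genes against 41.1% of all genes. The log2 differences were 2.28 for Jag2 (SE 0.262, edgeR adjusted p = 2.9e-07), 1.56 for Nrarp (SE 0.319, adjusted p = 3.0e-04) and 1.41 for Hey1 (SE 0.150, adjusted p = 9.9e-08). Hey1 was the only one of the 10 whose 4 KPC1 libraries lay wholly above the 28 clonal libraries, which 0.298% of all genes did in either direction. Jag1 (0.63, adjusted p = 0.0052) and Heyl (0.94, adjusted p = 0.0237) were not called once the library with the highest epithelial marker sum was left out of each co-culture (adjusted p = 0.149 and 0.182), or without KPC1 library 1 alone. The call of Notch2 (-0.44, adjusted p = 0.0123) was lost without KPC1 library 4.

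Of 36 other pathway genes that were tested, 15 were higher and 8 lower in the mean of the clones, where 24.3% of all genes were higher and 24.9% lower, with a median log2 difference of 0.10 beside 0.01 over all genes, and 24 differed among the clones, a share no higher than the 67.5% of all genes. In the single co-cultures between 6 and 12 of the 36 were higher and between 2 and 12 lower, beside 10.4% to 30.5% of all genes higher and 8.69% to 28.9% lower. A further 7 (Dll3, Dll4, Mfng, Dtx1, Hes2, Hes3 and Hes5) were too low to be tested. Of the Delta-type ligands, Dll1 went from 0.590 CPM alone to between 0.28 CPM with clone V and 3.34 CPM with clone T (mean clonal log2 difference 1.06, edgeR adjusted p = 0.0404), and Dll4 did not exceed 0.272 CPM in any library. The fourth receptor, Notch4, stood at 1.38 CPM in the mono-culture and 0.74 to 2.71 CPM in the co-cultures (0.12, adjusted p = 0.685).

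In the signal-receiving machinery, Rbpj, the DNA-binding partner of the receptor domain, was higher by 0.68 on the log2 scale (edgeR adjusted p = 3.3e-04), and its group means were 328 CPM for H, 324 for V and 371 for KPC1 beside 138 CPM in the mono-culture. Rbpj was called higher with clones H, N, T and V and with KPC1. It was not called with clones E, K and M, of which M had the lowest mean of the co-cultures. All 4 tested genes of the transcription complex were called, with Maml1 and Maml3 higher and Maml2 lower, where 49.2% of all genes were called in the mean of the clones. Maml1 and Maml2 were named after their values were seen. Lfng, a Fringe that adds sugars to Notch receptors and alters their response to ligands, was higher by 0.67 (adjusted p = 2.9e-04) and was called with clones E, K, M and N. Pofut1, which adds the O-fucose that Fringe extends, was lower by 0.96 (adjusted p = 2.3e-09) and had the smallest F-test p among the clones of the pathway list (1.2e-12), from 13.8 CPM with clone H to 50.8 CPM with clone M beside 49.7 CPM alone.

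Neurl1b, a ubiquitin ligase that promotes ligand endocytosis, was higher by 0.62 (edgeR adjusted p = 2.3e-04). All 4 genes of receptor turnover were higher, namely Numb, Numbl, Itch and Fbxw7 (0.43, adjusted p = 9.7e-05), the last the ubiquitin ligase that targets the released receptor domain. In this contrast 24.3% of all genes were higher, and Numb, Numbl and Itch were named after their values were seen. Dlk1, a non-canonical ligand known for holding back adipocyte differentiation, was lower by 1.16 (adjusted p = 1.5e-04) and stood at 19.7 CPM with clone V, 126 CPM with clone K and 102 CPM alone. Dtx3l was lower by 1.07 (adjusted p = 3.0e-05), and Psen2, a catalytic subunit of gamma-secretase, by 0.75 (adjusted p = 1.4e-06).

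**Figure D5:**
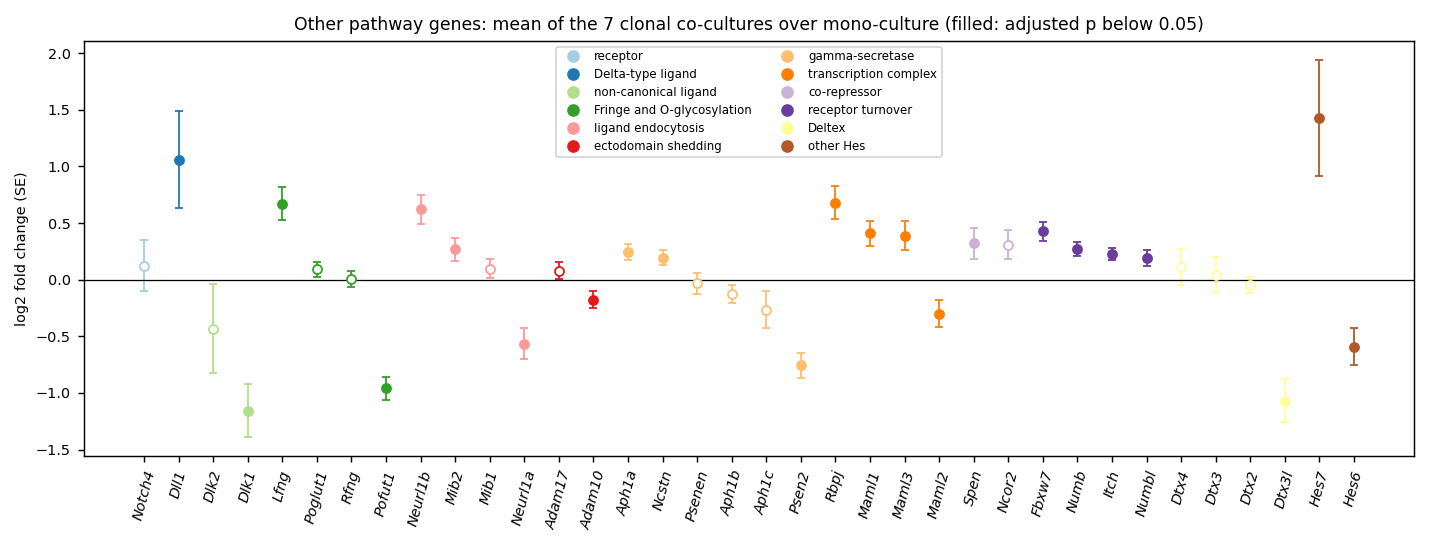
Log2 fold change of the 36 other pathway genes in the mean of the 7 clonal co-cultures over the mono-culture (points, with SE), coloured by role; filled points have an adjusted p below 0.05. The genes spread to both sides of 0, with 15 filled points above and 8 below.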

How the data were processed

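A stranded poly(A) kit was used (200 ng RNA, 14 PCR cycles, paired reads of 76 bp). The authors deposited whole-number counts per gene for 39017 genes, with no scaling, and RPKM values (counts per gene length and library total). The submitters' processing notes name STAR, featureCounts, edgeR and the build mm10, and versions and strand settings are not given in the sources used here. Groups came from the labels. Counts were tested with edgeR 4.0.16 in R 4.3.3 (filterByExpr on the 9 groups, TMM scaling, estimateDisp, glmQLFit with robust estimation, glmQLFTest) on all 36 libraries with 1 coefficient per group, with Benjamini-Hochberg adjustment over the 14439 genes tested and a threshold of 0.05. A standard error is the fold change divided by the square root of F. In data simulated for clone E against the mono-culture over 14439 genes, 79% of 200 changed genes were recovered with 1 false call. The F-test among the clones gave 8 false calls there and DESeq2 gave 9. The simulation changed 200 genes in clone E alone, whereas 4622 genes (32%) were called with clone E in the data. Recovery with changes on that scale was not examined. The depth of 12532122 to 21985538 counts makes counting error small for abundant genes; 3 counts per library was taken as the detection floor, and floors and intervals cover counting error only, since PCR reads are not independent molecules. Alternatives were DESeq2 1.42.0, RLE or no scaling, other filters, limma 3.58.1 on log2(RPKM + 1) and log2(RPKM + 0.1), a replicate block, fits of 2 groups, and leaving out libraries. The 10 genes and all lists were chosen with earlier results of these data known. Each of the 10 was named. Other pathway genes were named if called in the mean clonal contrast with at least 2 CPM (up to 4 highest and 4 lowest), or among the 4 smallest F-test p-values, plus Notch4, Dll1, Dll4 and Rbpj. Maml1, Maml2, Numb, Numbl and Itch were named after their values were seen, to complete a role. 1 gene of the pathway list is not reported here. Genes most like Hey1 were the 3 with the highest Pearson r. Gene positions are from GENCODE vM21 (GRCm38, the same assembly as mm10), and promoter windows from RefSeq.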

Additional observations from a re-analysis of the deposited data

Results flagged for a closer look

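In 3 of the 90 sets of 4 libraries (10 genes in 9 groups), 1 library stood apart from the other 3 by Dixon's ratio, the gap to its nearest neighbour over the whole range, above its 95% critical value. Chance alone gives about 4.5 such sets in 90. They were Notch1 with clone H, where library 4 stood at 88.9 CPM against 157 to 163 (ratio 0.919), Hes1 with clone H, where the same library stood at 32 CPM against 60.4 to 62.1 (ratio 0.941), and Hey1 with clone V, where library 2 stood at 4.28 CPM against 1.79 to 2.09 (ratio 0.883).

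The effect of co-culture differed among the 7 clones for 9 of the 10 genes (edgeR F-test, Benjamini-Hochberg adjusted over all genes tested). The adjusted p was 3.1e-09 for Hey1, 4.6e-07 for Jag2, 1.1e-05 for Heyl, 1.8e-05 for Notch3, 1.4e-04 for Notch1, 0.00148 for Jag1, 0.00194 for Notch2, 0.00206 for Nrarp and 0.0379 for Hey2. In this test 67.5% of all genes were called.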

How the results depend on the processing

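No call reversed direction under any alternative. Over 1024 values of single genes under 10 alternatives, 994 kept their side of the threshold, 22 lost it and 8 gained it, and 4 values that were not called changed sign. Over 3960 values with 1 library left out, 3894 kept their side, 56 lost it, 10 gained it and 17 uncalled values changed sign. Left-out libraries moved the counts of genes called to between 7 and 8 for clone E, 8 and 9 for clone H, 6 and 8 for clone K, 8 and 9 for clone T, 7 and 8 for clone V, 4 and 7 for KPC1 against the clones and 8 and 9 among the clones. The share of all genes called in each of these fits is not given here. Requiring at least 10 counts in every library removed 4 of the 10 genes, so that 6 were tested. Of these, 5 were called with clones E, H, K, M, N and T (33.7%, 57.3%, 20.8%, 24.4%, 41.3% and 52.7% of all genes). With clone V 4 were called (62.1% of all genes) and with KPC1 6 (62.4%). In the mean of the clones 5 were called (51.6% of all genes), for KPC1 against the clones 2 (44.8%) and among the clones 5 (71.8%). Over the pairs 89 of 216 differences were called, and the share over all genes under this filter is not given here. With limma on log2(RPKM + 1), Heyl was not called with clones H, K and V, nor Jag2 with clone H, nor Nrarp with clone K (adjusted p = 0.393). Notch2 was called lower with clone T. On this scale the share of all called genes that were higher was 39.3% to 46% over the contrasts, beside 49.4% to 54.6% in the counts. The labels do not say what a replicate number marks, and the numbers were not taken as pairs: same-numbered co-culture libraries correlated at -0.519 to 0.693 in their deviations from the group means (mean 0.143, against -0.047 between other numbers), with 63 of 112 pairs over 0.1, and as a hint from the data 24 of 32 co-culture libraries correlated best with their own number and 0 of 4 mono-culture libraries did. A fit with the replicate number as a block called 10 genes with clone T, 8 with clone V and 7 for KPC1 against the clones (of all genes 54%, 62% and 46.4%, from 49.8%, 58.3% and 41.1%), lost no call, and gave 198 of 360 differences over the pairs (35.3% of those of all genes, from 30.7%). DESeq2 called 8 genes with clone V (59.1% of all genes) and otherwise the same numbers as edgeR in each comparison with the mono-culture. Over all genes DESeq2 called between 21.1% (clone K) and 59.5% (KPC1) in the single co-cultures. Depth limits Heyl, Hey1, Jag2 and Nrarp, whose mono-culture values rest on 6, 18, 42 and 25 counts in all.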

Other observations

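Library 4 was the lowest of its group for Notch2, Notch3 and Jag1 in 7 of the 8 co-cultures each, for Notch1 and Hey2 in 6 and for Heyl in 5, while it was the lowest for Jag2 in 1 and for Nrarp in 0. In the mono-culture, library 4 was the lowest for Hes1 and for none of the other 9 genes. The labels do not say what a replicate number stands for.

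By RPKM, Notch2 was the highest of the 10 genes in the mono-culture (20.6), followed by Hes1 (16.4) and Notch3 (12.4). With clone E the order was Notch3 (52.9), Hes1 (47.3) and Notch2 (19.5), and with KPC1 it was Hes1 (43.2), Notch3 (35.5) and Jag1 (18.2), ahead of Notch1 (16.6) and Notch2 (12.97). Hes7, a member of the Hes family at low level, had group means of 0.14 CPM in the mono-culture and 0.09 CPM with clone K to 1.38 CPM with KPC1, and its mean clonal log2 difference was 1.43 (edgeR adjusted p = 0.0217).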
